A study of Homo sapiens with 60 samples.

Results

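The nuclear genes for subunits of the oxidative phosphorylation complexes were followed in HepG2, a widely used human liver cancer cell line, after exposure to herbal extracts. Members were chosen by symbol among protein-coding genes: NDUFA, NDUFB, NDUFC, NDUFS or NDUFV followed by a digit, SDHA to SDHD, every UQCR symbol, CYC1, the COX4 to COX8 subunits, and symbols starting ATP5F1, ATP5M or ATP5P. The rule gave 87 of the 60675 genes in the table, of which 38 belong by symbol to complex I, 4 to complex II, 10 to complex III, 17 to complex IV and 18 to complex V. NDUFAB1 has no digit after its prefix and was not counted. The readthrough genes ATP5MF-PTCD1 and NDUFC2-KCTD14 were set apart, since they share reads with members. A further 179 genes matched the symbols but were not protein-coding, 172 of them processed pseudogenes, so reads of some members could have been shared with near copies.

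Complex I (NADH dehydrogenase), complex II (succinate dehydrogenase), complex III (the cytochrome bc1 complex) and complex IV (cytochrome c oxidase) pass electrons from NADH and succinate to oxygen in the inner mitochondrial membrane, and complexes I, III and IV pump protons as they do so. Complex V, the ATP synthase, lets the protons back and makes ATP. Complex II is encoded wholly in the nucleus, while the other complexes also hold subunits made from the mitochondrial genome, so their assembly draws on both genomes. Transcription factors known to act on nuclear subunit genes include NRF1, the ETS factor GABPA and YY1, with the PGC-1 family as coactivators.

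RNA was sequenced in 60 libraries of 25 groups after 24 h of exposure, with 8 extracts at 20 µg/mL (Low), 100 µg/mL (Medium) and 500 µg/mL (High) and a DMSO vehicle. Glycyrrhizae Radix (licorice root), Poria Cocos, Atractylodis Rhizoma, Panax Ginseng, Paeoniae Radix and Angelicae Gigantis Radix were single-herb extracts in 70% ethanol, and Sibjeondaebo-tang and Palmul-tang were water extracts of herbal formulas. The first 4 herbs and Sibjeondaebo-tang had 3 libraries per dose, Palmul-tang had 2, Angelicae Gigantis Radix and Paeoniae Radix had 1, and vehicle had 3. DMSO in the vehicle is 0.1% by the sample labels and 2% by the series text, and the DMSO content of the treated cultures is not given in the sources used here. All cells were of 1 line, and no label says whether replicates were separate cultures, so p-values measure the spread between these libraries, which may be technical. Vehicle shares its set code in the sample descriptions with no extract, so set and treatment cannot be told apart in any comparison with vehicle. High and Low of an extract do share a code, and that comparison uses no vehicle library. The titles of all 60 libraries carry the same label, BatchC, and what the set code stands for is not stated.

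Library totals ran from 19057230 to 33233215 expected counts. Levels are CPM, counts scaled to a common library size by TMM. All 9 hepatoma markers, ALB, AFP and APOA1 among them, reached 1 CPM. Of 4 leukocyte markers LYZ alone did, at a mean of 1252 CPM, while PTPRC, which defines leukocytes, had 0 counts; the summed leukocyte list was 816 to 2090 CPM in treated libraries and 1143 to 1286 CPM in vehicle. The 3 endothelial markers summed to 1.66 to 3.23 CPM in treated libraries and 2.22 to 2.45 CPM in vehicle, and none of the 4 fibroblast markers reached 1 CPM.

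Promoter sequence was shown for some of the members called between High and Low. SDHA, SDHD and ATP5F1C were lower at High than at Low with both Glycyrrhizae Radix and Poria Cocos, and COX7A2L was higher at High than at Low with Glycyrrhizae Radix. The 250 bases before each gene's start are given 5′ to 3′ on the gene's own strand from RefSeq on GRCh38.p14: SDHA at chr5:218070-218319 (plus strand), SDHD at chr11:112086623-112086872 (plus), ATP5F1C at chr10:7787927-7788176 (plus) and COX7A2L at chr2:42361218-42361467 (minus), the last being 1 of 2 windows listed for that gene. Capitals mark matches, on either strand, to GCGCATGCG (the core of the NRF1 motif), to CCGGAAG (an ETS motif, as bound by GABPA), to AAGATGGCG (YY1) and to GCGCAGGCG, a run added after the SDHA sequence was seen.
SDHA: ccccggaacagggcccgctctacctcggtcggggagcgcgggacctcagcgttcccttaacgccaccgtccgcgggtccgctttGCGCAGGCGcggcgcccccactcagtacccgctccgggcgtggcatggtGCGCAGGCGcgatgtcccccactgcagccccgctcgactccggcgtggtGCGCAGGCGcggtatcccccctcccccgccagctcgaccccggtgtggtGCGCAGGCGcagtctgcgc
SDHD: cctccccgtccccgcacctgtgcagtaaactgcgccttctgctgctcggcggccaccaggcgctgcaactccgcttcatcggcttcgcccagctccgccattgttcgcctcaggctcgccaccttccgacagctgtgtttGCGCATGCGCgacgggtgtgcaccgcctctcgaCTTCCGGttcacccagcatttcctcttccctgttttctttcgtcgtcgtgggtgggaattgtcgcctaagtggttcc
ATP5F1C: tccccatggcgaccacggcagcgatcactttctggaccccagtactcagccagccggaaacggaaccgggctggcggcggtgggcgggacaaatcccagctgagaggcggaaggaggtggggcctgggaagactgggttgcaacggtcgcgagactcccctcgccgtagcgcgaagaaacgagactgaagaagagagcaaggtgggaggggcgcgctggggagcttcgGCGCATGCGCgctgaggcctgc
COX7A2L: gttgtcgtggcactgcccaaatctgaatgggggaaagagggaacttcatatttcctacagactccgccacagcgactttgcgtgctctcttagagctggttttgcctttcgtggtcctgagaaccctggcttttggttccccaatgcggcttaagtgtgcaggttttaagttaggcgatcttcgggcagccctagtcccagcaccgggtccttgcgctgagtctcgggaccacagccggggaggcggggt

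The SDHA window held 4 copies of GCGCAGGCG, the SDHD window a GCGCATGCG match and an ETS match, the ATP5F1C window a GCGCATGCG match, and the COX7A2L window none of these runs. Windows of 300 bases, 250 before to 50 after the start, were listed for 68 of the 87 members and for 27305 genes in all. GCGCATGCG occurred for 11 of the 68 members with a window (16.2%) and for 2.34% of all genes with a window. CCGGAAG occurred for 21 members (30.9%) and 12.2% of genes, and AAGATGGCG for 9 members (13.2%) and 2.14% of genes. GCGCAGGCG occurred for 10 members (14.7%) and 4.65% of genes. GCGCATGCG and GCGCAGGCG differ by 1 letter. GCGCAGGCG was picked from the SDHA window, which is among its 10 member matches, so its share of members is partly built in. The genes printed do not stand for all called members. Of the other members lower at High with both extracts, ATP5F1A had a CCGGAAG match. ATP5PB, NDUFA11, NDUFA2 and NDUFB1 were listed with no match, and neither were NDUFS5 and UQCRC2, lower with Glycyrrhizae Radix. A member without a window cannot be listed. A match is a run of letters and says nothing of whether a factor was bound in these cells.

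HepG2 cells held transcripts of the common form of every complex IV subunit and almost none of its tissue isoforms. COX6A2, COX7B2 and COX8C, forms known from muscle or testis, had 0 counts in all 60 libraries, which allows up to 0.00192 CPM of the summed raw total. COX4I2, a form of COX4 known from lung, had 2 counts in all. COX6B2 and COX7A1 averaged 0.0262 and 0.0256 CPM. ATP5MGL, a near copy of ATP5MG, averaged 0.0419 CPM. These 7 genes did not pass the filter on low counts, and 80 members were tested, among them every member of complexes I, II and III, 11 of 17 in complex IV and 17 of 18 in complex V. UQCRHL, a near copy of UQCRH, averaged 3.87 CPM and is uncertain where reads were split between them. NDUFA4L2, a paralog of NDUFA4 known to be induced by hypoxia, averaged 0.518 CPM.

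Per kilobase of median transcript length, the highest level in vehicle was that of ATP5MF, a membrane subunit of the ATP synthase, at 461 CPM per kb, followed by ATP5F1B, the catalytic beta subunit, at 306 and NDUFC2 of complex I at 285. SDHA, the flavoprotein of complex II, stood at 68.9, and NDUFS1, the iron-sulfur subunit that carries electrons through complex I, at 62.0. NDUFA9 had 8.59 CPM per kb, the lowest level of a member other than the isoforms and near copies above. The median length is that of the annotated transcripts and not of those used in HepG2, so the order is approximate.

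Treated libraries held fewer subunit transcripts than vehicle. Summed over the 87 members, CPM ran from 5081 to 6753 with a median of 5787 over the 57 treated libraries, against 6882, 7111 and 6629 in the 3 vehicle libraries. All but 1 of the treated libraries lay below every vehicle library, the exception being the third Poria Cocos Low library at 6753. Complex V, the ATP synthase, lay below every vehicle library in 57 of 57 treated libraries, with a median of 1966 CPM against 2430, 2509 and 2400 CPM in vehicle. Complexes I, II and IV each did so in 56 of 57. Complex III did so in 46 of 57, with 1 library above every vehicle library; on raw totals it did so in 56 and without the mitochondrial genome in 54. Its median was 974 CPM in treated libraries against 1047, 1071 and 1005 CPM in vehicle. These counts set all treated libraries against the same 3 vehicle libraries. On totals without the mitochondrial genome the sum over all 5 complexes was again below every vehicle library in 56 of 57, and on raw totals in 57 of 57.

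Other measures moved with these sums. Transcripts of the mitochondrial genome took 14.7% to 24.8% of counts in treated libraries, against 13.6%, 13.4% and 15.2% in vehicle, and were above every vehicle library in 55 of 57. The summed level of 86 cytosolic ribosomal protein genes was below every vehicle library in 50 of 57 treated libraries, and its highest value fell in the third Poria Cocos Low library, the one with the highest subunit sum. The first Sibjeondaebo-tang Medium library had the lowest ribosomal sum and the second lowest subunit sum, at 5103 CPM. Transcript length moved with the differences from vehicle as well. Over 12819 coding genes the log2 difference from vehicle rose with median transcript length in each of the 18 comparisons (Spearman's rho 0.12 to 0.35, across genes, which are not independent). Coding genes under 1 kb had medians of -0.16 to -0.08, and 53 of the 80 members tested are that short. Those 53 had medians of -0.39 to -0.21, and the longer members -0.30 to -0.14. The part of these measures in the subunit levels was not tested. Leaving the mitochondrial genome out of the counts kept each of the 25 counts of called members within 1.5 times its value. That refit cannot decide the part of the mitochondrial share, since it kept 16253 of 16284 genes and TMM scaling could change little.

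**Figure D1:**
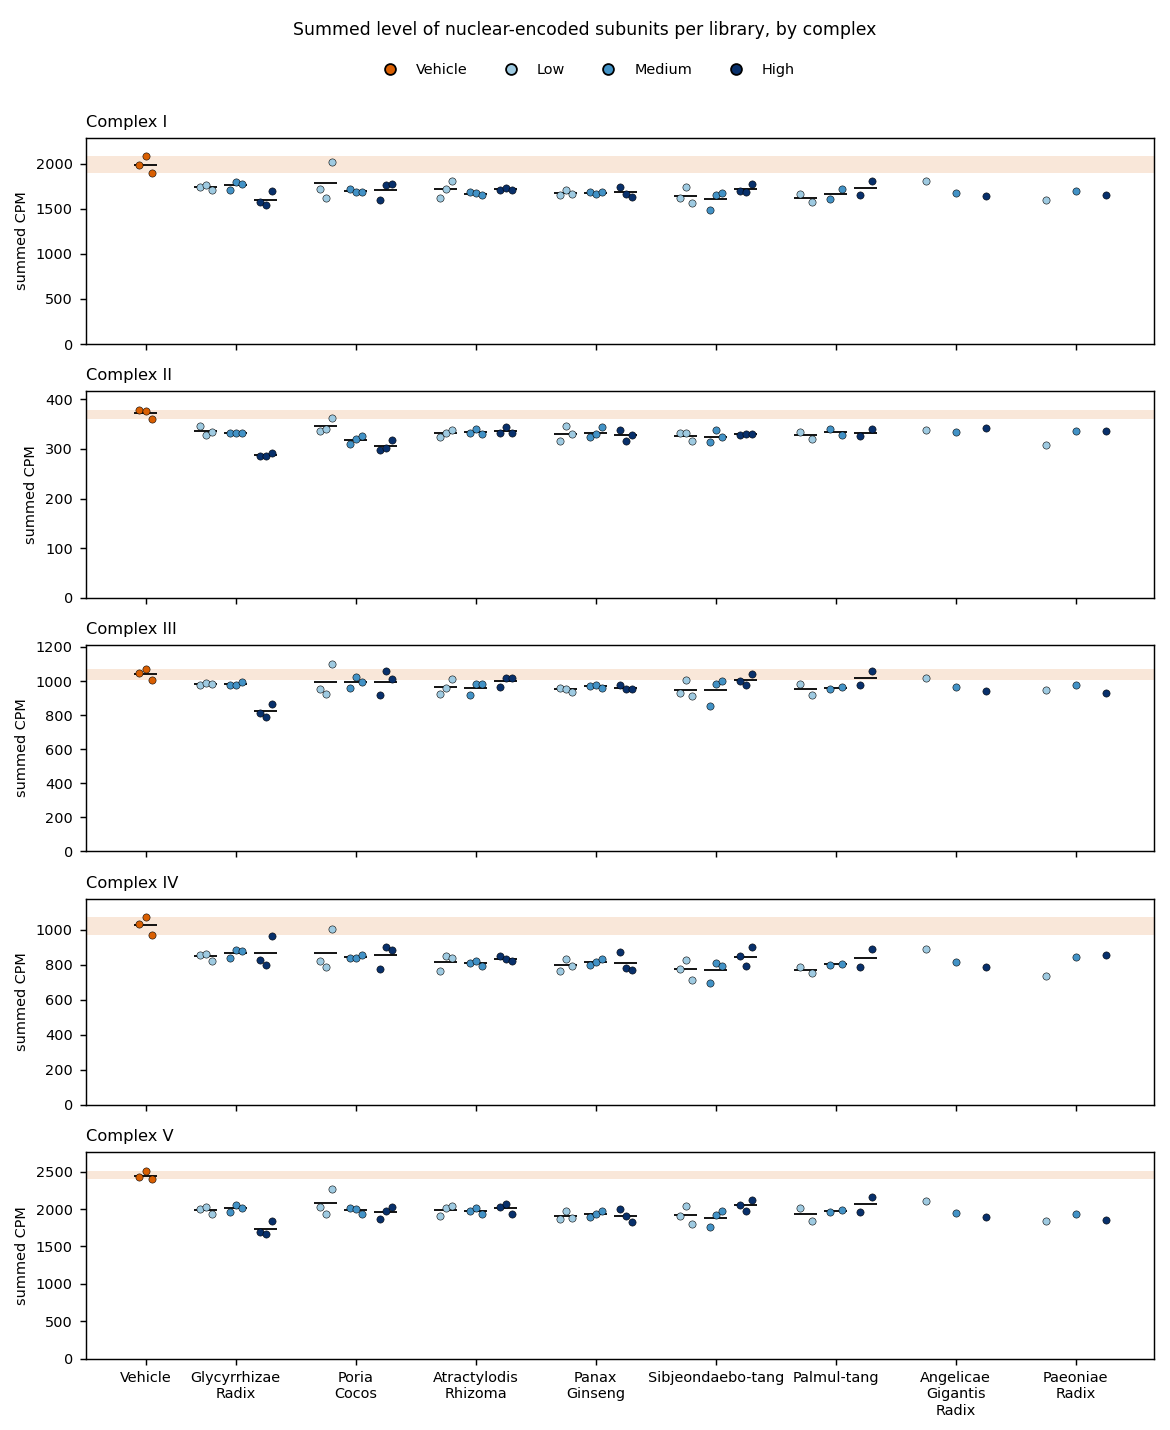
Summed CPM of the nuclear-encoded subunits of each complex (y axes, from 0) in every library, by extract and dose (x axis); points are libraries, black lines are group means where a group has 2 or more libraries, and the shaded band is the range of the 3 vehicle libraries. Complex V lies below the band in all 57 treated libraries, while complex III reaches it in 11, and Glycyrrhizae Radix High has the lowest complex II and III sums.

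Comparisons with vehicle asked which subunits differed at each dose. Tests used the quasi-likelihood test of edgeR on counts, fitted over the 54 libraries of groups with replicates, with Benjamini-Hochberg adjustment over 16284 genes at 0.05. In Glycyrrhizae Radix libraries 44 of 80 members were lower at Low (55.0%, against 14.5% of all genes tested), 42 at Medium (52.5%, against 17%) and 61 at High (76.2%, against 30.2%). Poria Cocos libraries had 30 lower at Low (37.5%, against 9.32%), 44 at Medium (55.0%, against 18.9%) and 50 at High (62.5%, against 24.8%). Atractylodis Rhizoma libraries had 46 lower at Low (57.5%, against 13.1%), 48 at Medium (60%, against 13.6%) and 45 at High (56.2%, against 16.7%). The share of members that was lower thus exceeded the share of all genes at each dose of these 3 extracts.

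The other replicated extracts gave counts of the same size. Panax Ginseng libraries had 51 lower at Low (63.8%, against 16.6% of all genes), 51 at Medium (63.8%, against 14.6%) and 51 at High (63.8%, against 17.8%). Sibjeondaebo-tang libraries had 52 lower at Low (65.0%, against 17.6%), 59 at Medium (73.8%, against 17.8%) and 43 at High (53.8%, against 16.4%). Palmul-tang libraries had 54 lower at Low (67.5%, against 15%), 51 at Medium (63.8%, against 14.2%) and 40 at High (50%, against 13.9%). Few members were higher than vehicle. From Low to High they numbered 2, 2 and 3 with Glycyrrhizae Radix (15.2%, 17.9% and 31.1% of all genes were higher), 1, 3 and 5 with Poria Cocos (9.9%, 19.7% and 26.3%) and 2, 2 and 2 with Atractylodis Rhizoma (13.7%, 14.7% and 17.3%). They numbered 2, 2 and 2 with Panax Ginseng (16.8%, 15.3% and 18.5%), 2, 2 and 6 with Sibjeondaebo-tang (18.3%, 18.2% and 17.8%) and 4, 3 and 4 with Palmul-tang (16.1%, 15.4% and 15.3%). In no comparison did the members' share reach that of all genes. Median log2 differences over the members ran from -0.37 (Sibjeondaebo-tang Medium) to -0.18 (Poria Cocos Low), while the median over all genes lay between -0.01 and 0.01 in each comparison. All 18 comparisons use the same vehicle libraries and are not independent of one another.

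Some of these counts moved when 1 library was left out, and the share of all genes called in those refits is not given here. Poria Cocos Low had 31 members called in either direction (19.2% of all genes were), 51 without replicate 3, 20 without replicate 2 and 19 without the second vehicle library. With 1 Palmul-tang library left, whose spread is assumed to be that of the other groups, the counts were 34 at Low without replicate 3, against 58 with both, 28 at Medium without replicate 2, against 54, and 17 at High without replicate 2, against 44. In either direction 31.1% of all genes were called at Palmul-tang Low, 29.7% at Medium and 29.2% at High.

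In complex I, NDUFA1, a small membrane subunit named here after its values were seen, was lower than vehicle in each of the 18 comparisons, all of which share the vehicle libraries. It measured 10.8, 10.0 and 17.5 CPM at Glycyrrhizae Radix High and 13.6, 13.9 and 13.3 CPM at Low, against 23.2, 27.6 and 22.5 CPM in vehicle. Neither dose overlapped vehicle, while High and Low overlapped each other. The log2 difference of NDUFA1 from vehicle was -0.96 (SE 0.16, adjusted p = 7.5e-07, edgeR) at High and -0.84 (SE 0.15, adjusted p = 4.5e-05) at Low. The landmark subunits moved less: NDUFS1 differed by -0.14 (SE 0.04, adjusted p = 0.014) and NDUFV1, which holds the NADH site, by -0.16 (SE 0.06, adjusted p = 0.045) at Glycyrrhizae Radix Low. NDUFA4L2 went the other way at a very low level, with 0.445, 0.641 and 0.449 CPM at Glycyrrhizae Radix Low against 0.205, 0.216 and 0.204 CPM in vehicle, a log2 difference of 1.28 (SE 0.43, adjusted p = 0.022). Its call was lost without any 1 of the 3 vehicle libraries, at adjusted p = 0.052 to 0.059, and without the second Low library, at 0.10.

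In complex II, SDHD, a membrane anchor, had the largest mean difference over the 6 Low groups. It measured 52.6, 50.2 and 47.4 CPM at Glycyrrhizae Radix Low against 67.1, 61.4 and 57.0 CPM in vehicle, with no overlap, and fell by 0.30 on the log2 scale (SE 0.07, adjusted p = 0.0014, edgeR). SDHB, the iron-sulfur subunit, passed the test in none of the 6 Low comparisons, with log2 differences between -0.15 and 0.00.

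Complex III members moved in opposite directions. UQCRQ, a small accessory subunit, averaged 34.9 ± 1.5 CPM at Glycyrrhizae Radix Low, 32.8 ± 3.7 CPM at Panax Ginseng Low and 31.5 ± 5.0 CPM at Sibjeondaebo-tang Low, against 59.0 ± 6.2 CPM in vehicle (SD, n = 3 each). Its log2 difference from vehicle at Low ran from -0.56 (SE 0.11, adjusted p = 0.00025, edgeR) in Poria Cocos to -0.95 (SE 0.13, adjusted p = 5.8e-07) in Palmul-tang. CYC1, the cytochrome c1 that hands electrons to cytochrome c, was higher in most treated groups. It measured 142, 125 and 132 CPM at Panax Ginseng Low against 98.1, 97.5 and 96.4 CPM in vehicle, a log2 difference of 0.45 (SE 0.11, adjusted p = 0.0016). Glycyrrhizae Radix High was the exception, at 94.0, 91.8 and 90.6 CPM, all below the vehicle range, with a log2 difference of -0.07 (SE 0.11, adjusted p = 0.59). Poria Cocos Low missed the threshold at 0.30 (SE 0.11, adjusted p = 0.052). UQCRC1 and UQCRFS1, a core protein and the Rieske iron-sulfur protein, differed little at Glycyrrhizae Radix Low, with log2 differences of -0.07 and -0.16 (SE 0.06 and 0.07) that did not pass the test.

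In complex IV, COX5B, a subunit that binds zinc, measured 42, 48.2 and 41.4 CPM at Panax Ginseng Low against 67.4, 78.8 and 62.6 CPM in vehicle, without overlap. It fell by 0.66 on the log2 scale there (SE 0.11, adjusted p = 1.4e-05, edgeR), and by 0.50 to 0.91 over the 6 Low groups. COX4I1, which is required for assembly, fell by 0.46 at Panax Ginseng Low (SE 0.09, adjusted p = 5.9e-05), with 105, 120 and 103 CPM against 142, 160 and 151 CPM in vehicle. COX5A, which sits beside it, passed the test in none of the 18 comparisons, with log2 differences between -0.13 and 0.10.

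In complex V, the alpha and beta subunits of the F1 head are encoded by ATP5F1A and ATP5F1B. ATP5F1A measured 312, 296 and 288 CPM at Glycyrrhizae Radix Low against 420, 419 and 419 CPM in vehicle, with no overlap, and fell by 0.48 on the log2 scale (SE 0.06, adjusted p = 6.7e-08, edgeR). ATP5F1B fell by 0.42 (SE 0.06, adjusted p = 1.3e-06), with means of 418 ± 20.6 CPM at Low and 563 ± 0.77 CPM in vehicle (SD, n = 3 each). ATP5ME, subunit e of the membrane part, fell by 0.48 at Glycyrrhizae Radix Low (SE 0.17, adjusted p = 0.026), with 48.3, 56.8 and 44.2 CPM against 62.7, 79.5 and 66.8 CPM in vehicle. That call was lost without Low replicate 1 or 3, at adjusted p = 0.070 and 0.12, or without the second vehicle library, at 0.15.

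**Figure D2:**
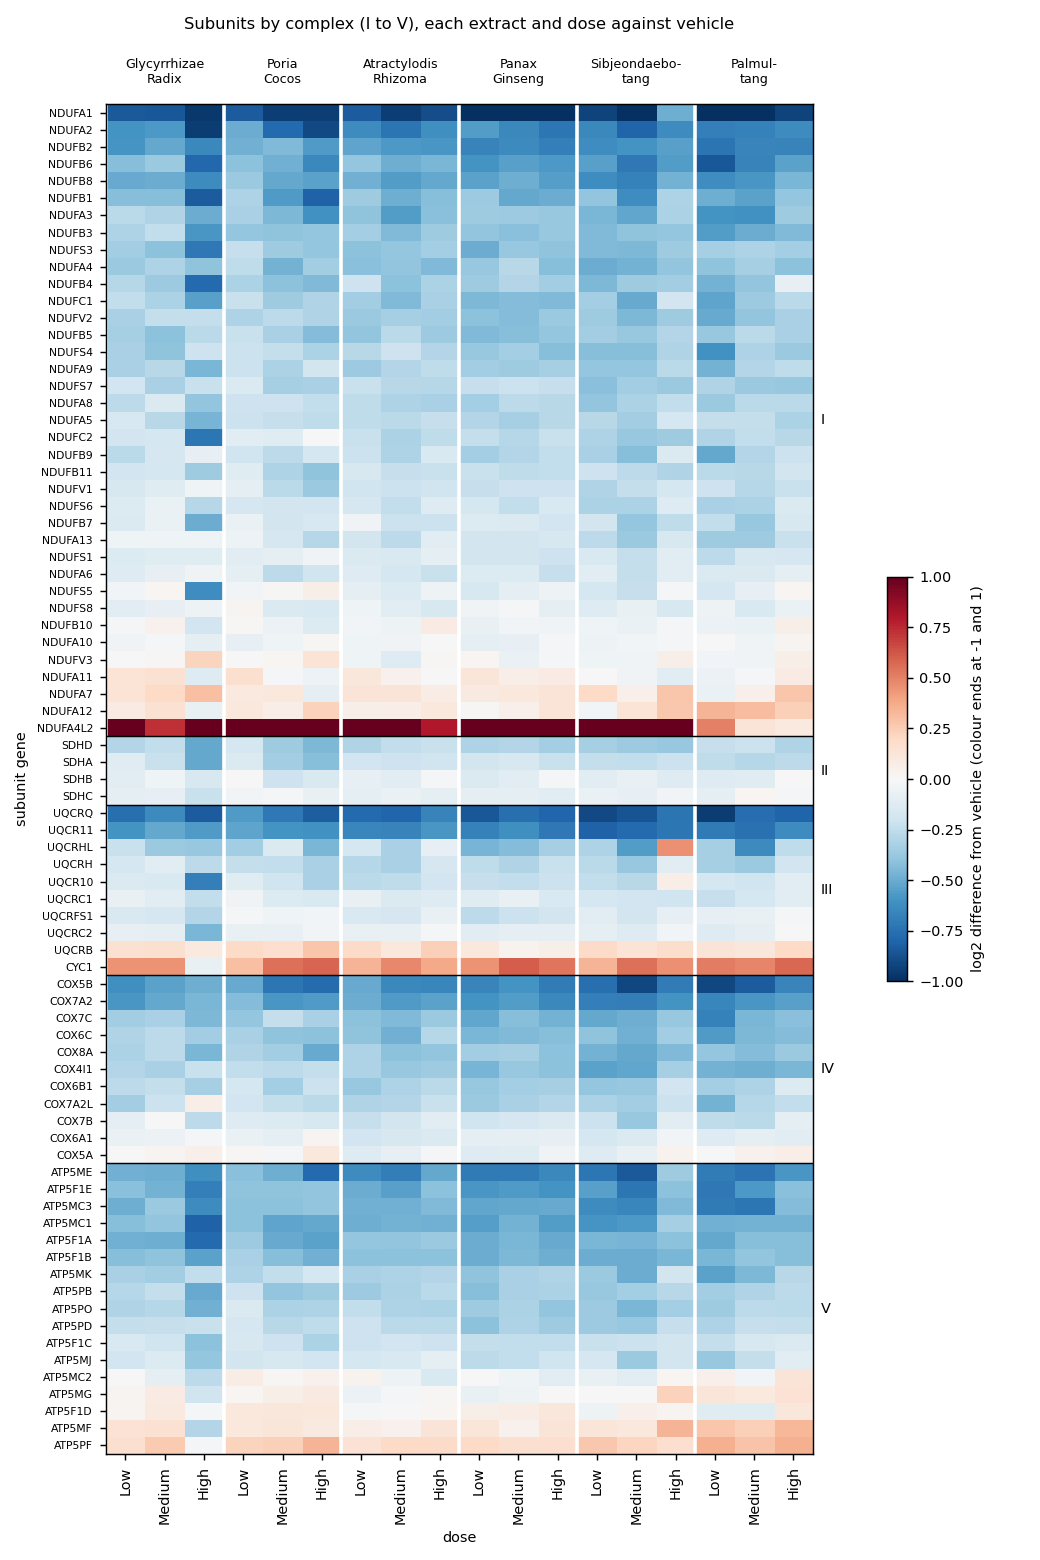
Log2 difference from vehicle (colour, cut at -1 and 1) of the subunits tested, 1 complex I member left out (rows, grouped by complex and ordered by their mean) for each extract and dose (columns, Low to High within an extract). Most rows are blue throughout, CYC1 is red except at Glycyrrhizae Radix High, and NDUFA4L2, at the foot of complex I, is red but has under 1 CPM.

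High against Low of one extract asked what followed dose. With Glycyrrhizae Radix, some subunits of complexes I, II, III and V were lower at High, and no complex IV member passed the test in that direction. Of the 80 members 29 were lower at High (36.2%, against 27.8% of all genes tested) and 2 were higher (2.5%, against 28.4%; 56.3% in either direction), with a median log2 difference of -0.13, where the median of all genes was 0.01. In complex I 14 of 38 were lower and 1 higher, in complex II 3 of 4 were lower, in complex III 4 of 10 and in complex V 8 of 17. In complex IV 0 of 11 were lower and 1 was higher, and its median log2 difference was 0.05. The difference between complexes was not tested. Without each library in turn the count called ranged from 24 to 38. The share of all genes called in those refits is not given here.

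Summed levels were also lower at High in these 4 complexes. Complex II summed to 285, 285 and 291 CPM at Glycyrrhizae Radix High against 347, 328 and 335 CPM at Low. Complex III summed to 809, 791 and 864 CPM at High against 976, 991 and 983 CPM at Low, and complex V to 1690, 1660 and 1834 CPM against 2000, 2031 and 1934 CPM. In these 3 complexes the High libraries lay below every Low library. Complex I, at 1572, 1542 and 1698 CPM against 1738, 1761 and 1713 CPM, also did not overlap, whereas complex IV did, at 830, 802 and 963 CPM at High against 859, 863 and 822 CPM at Low. The third High library was the highest of its group in each sum; its ribosomal protein sum was the highest as well, and without it 38 members were called. At Medium, complex II and III sums were 332, 332 and 332 CPM and 974.6, 977.8 and 994.8 CPM, within or near the Low range.

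Among complex I genes, NDUFS5, an accessory subunit on the intermembrane side (gene at chr1:39026318-39034636 on GRCh38), had the largest fall with Glycyrrhizae Radix. It measured 40.7, 41.8 and 44.7 CPM at High against 64.6, 62.5 and 64.6 CPM at Low, without overlap, and Medium was at 63.7, 68.7 and 65.0 CPM. Its log2 difference was -0.60 (SE 0.08, adjusted p = 4.8e-08, edgeR). NDUFC2 followed at -0.53 (SE 0.08, adjusted p = 7.6e-08), with 98.3, 94.3 and 97.6 CPM at High against 138, 138 and 140 CPM at Low. The core subunits NDUFS1 and NDUFV1 did not pass the test, at 0.02 (SE 0.04) and 0.12 (SE 0.06). Of 7 core subunits 2 were lower, and of 31 accessory ones 12, where 27.8% of all genes were; the difference between these groups was not tested. NDUFV3, an accessory subunit beside the NADH site, rose by 0.22 (SE 0.08, adjusted p = 0.013), with 46.0, 42.7 and 49.2 CPM at High against 37.8, 40.6 and 39.6 CPM at Low. That rise was lost without the third High library (adjusted p = 0.091) or the first Low library (0.064).

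SDHA, which oxidises succinate, measured 101, 96.1 and 107 CPM at Glycyrrhizae Radix High against 139, 126 and 133 CPM at Low. The groups did not overlap, and the log2 difference was -0.39 (SE 0.05, adjusted p = 1.4e-08, edgeR). SDHD and SDHC, both membrane anchors, fell by 0.21 (SE 0.07, adjusted p = 0.011) and 0.13 (SE 0.04, adjusted p = 0.0055), and SDHB stood at -0.06 (SE 0.06) without passing the test.

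In complex III, UQCRC2, a core protein, measured 200, 198 and 201 CPM at Glycyrrhizae Radix High against 265, 260 and 253 CPM at Low and had the lowest adjusted p of all members, with a log2 difference of -0.38 (SE 0.04, adjusted p = 5.4e-10, edgeR). CYC1 measured 94.0, 91.8 and 90.6 CPM at High against 123, 129 and 144 CPM at Low, a log2 difference of -0.52 (SE 0.11, adjusted p = 1.0e-04). Its High libraries lay just below the vehicle range, and its Low libraries lay above it. UQCR10, a small subunit near cytochrome c1, had the largest fall of the complex at -0.54 (SE 0.11, adjusted p = 4.8e-05), with 58.7, 58.3 and 76.3 CPM against 91.5, 96.2 and 92.5 CPM. UQCRFS1 stood at -0.14 (SE 0.08) and did not pass the test.

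COX7A2L, grouped with complex IV by symbol and known as an assembly factor that joins complexes III and IV into supercomplexes, was the 1 member of its group to pass the test. It measured 70.0, 69.8 and 75.4 CPM at Glycyrrhizae Radix High against 57.9, 56.9 and 46.4 CPM at Low, without overlap, and rose by 0.41 (SE 0.07, adjusted p = 8.6e-07, edgeR). Medium was at 58.9, 60.2 and 57.5 CPM, and vehicle at 70.7, 69.5 and 66.1 CPM, so the High libraries were back in or above the vehicle range. COX4I1 and COX5A stood at 0.07 (SE 0.09) and 0.06 (SE 0.06) without passing.

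In complex V, ATP5MF, subunit f of the membrane part, measured 116, 117 and 132 CPM at Glycyrrhizae Radix High against 157, 169 and 165 CPM at Low, a log2 difference of -0.43 (SE 0.09, adjusted p = 6.5e-05, edgeR). ATP5MC1 and ATP5MC2, genes for the same c-ring protein, fell by 0.38 (SE 0.08, adjusted p = 3.4e-05) and 0.27 (SE 0.07, adjusted p = 0.0013), and the call for ATP5MC3, a further gene for that protein, was not reached, at -0.14 (SE 0.08). ATP5F1A measured 240, 232 and 260 CPM at High against 312, 296 and 288 CPM at Low and fell by 0.30 (SE 0.06, adjusted p = 2.8e-05). ATP5F1B stood at -0.11 (SE 0.06) and did not pass.

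**Figure D3:**
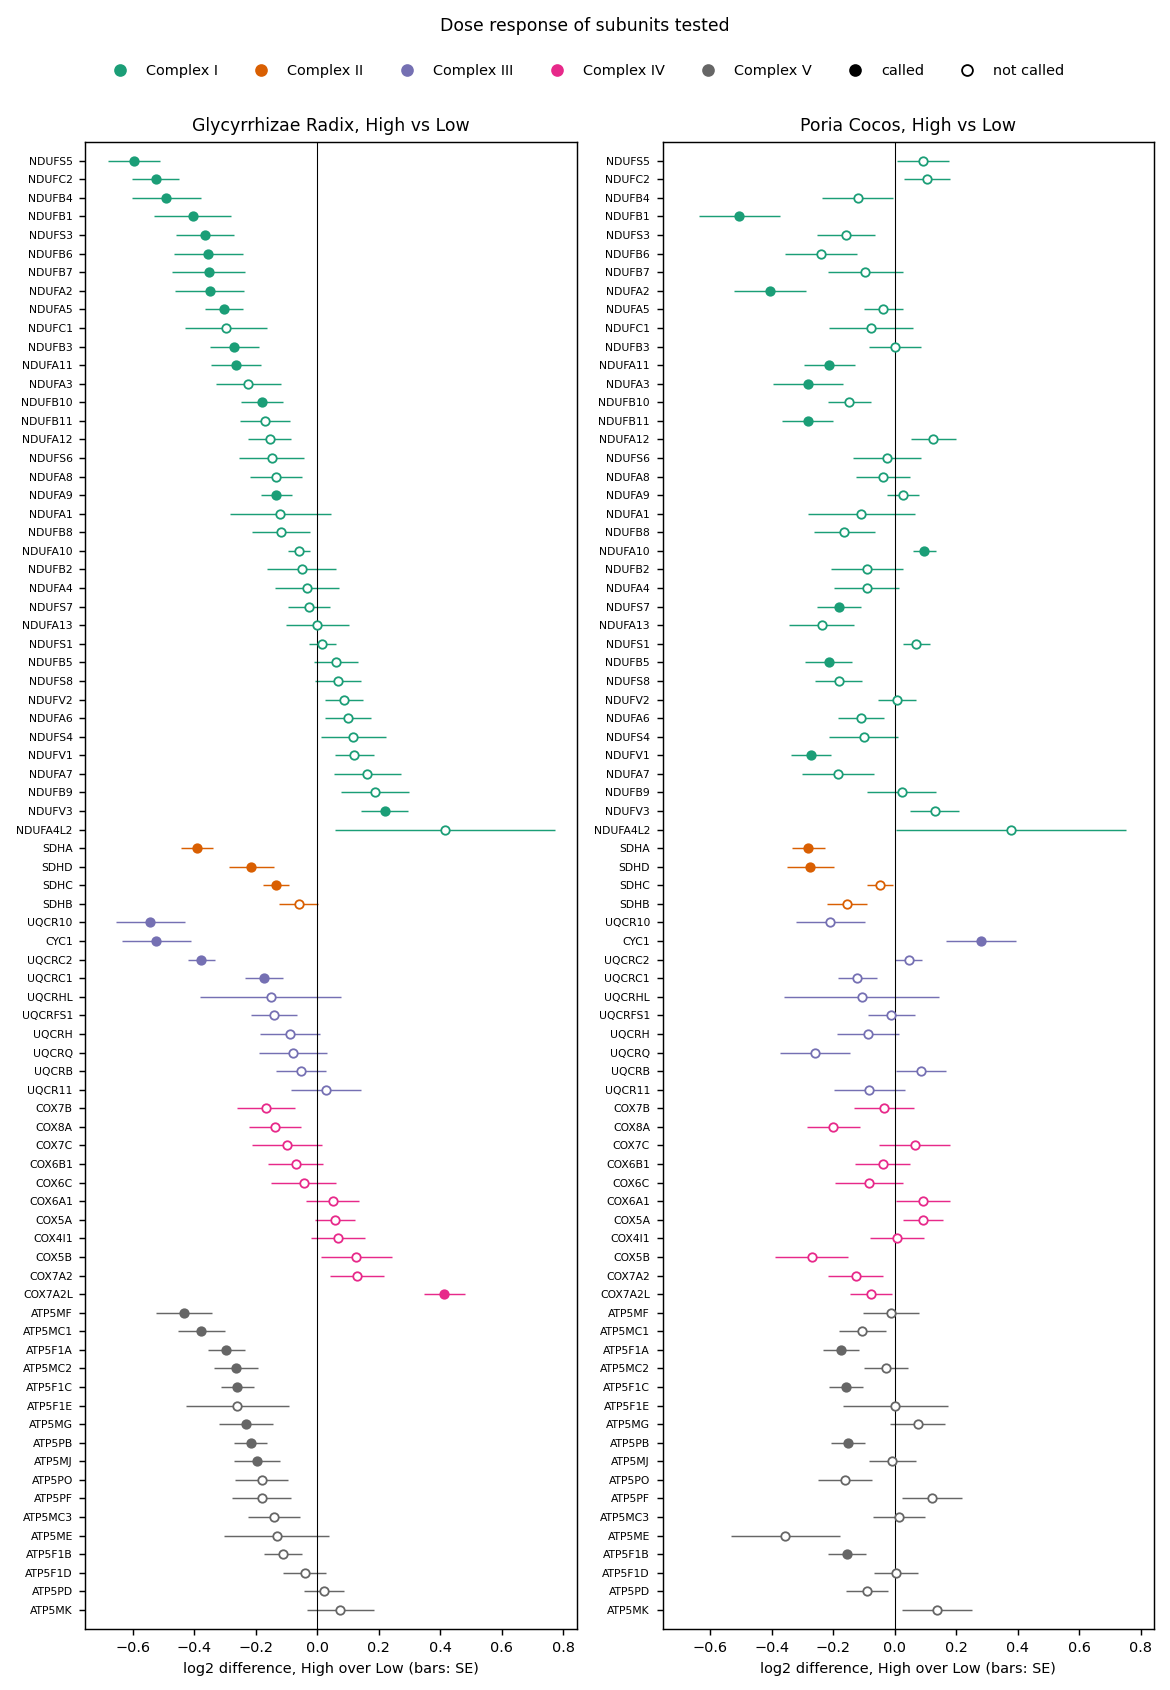
Log2 difference of High over Low (x axes; bars, SE) of the subunits tested, 1 complex I member left out, with Glycyrrhizae Radix (left) and Poria Cocos (right), listed by complex and by the Glycyrrhizae Radix value; filled points passed the edgeR test at an adjusted p under 0.05. Filled points on the left lie below 0 except NDUFV3 and COX7A2L, and on the right except NDUFA10 and CYC1.

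With Poria Cocos, the share of members called was near or below that of all genes after the filter on low counts. At High 14 of 80 were lower (17.5%, against 18.4% of all genes tested) and 2 were higher (2.5%, against 20%; 38.4% in either direction), with a median log2 difference of -0.09 and a median of 0.00 over all genes. The lower members were 8 of complex I, 2 of complex II and 4 of complex V. The 16 calls became 10 without the first High library, 10 without the third Low library, 25 without the second Low library and 5 in a fit of only these groups, where 27.6% of all genes were called. For the fits without a library the share of all genes called is not given here. With no filter on low counts 27 members were called, against 17.4% of all genes, a share above that of all genes. That fit took in 33286 genes instead of 16284, and 5789 genes were called instead of 6258. The share of all genes thus fell mainly because its base grew. The third Low library had the highest sums of all 5 complexes among the treated libraries, so values are given per library.

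NDUFB1, a small membrane subunit, had the largest fall with Poria Cocos, at 13.3, 16.3 and 17.4 CPM at High against 22.2, 18.1 and 26.6 CPM at Low, a log2 difference of -0.51 (SE 0.13, adjusted p = 0.0019, edgeR). SDHA measured 105, 105 and 112 CPM at High against 126, 124 and 141 CPM at Low and fell by 0.28 (SE 0.05, adjusted p = 3.0e-05). NDUFV1 measured 47.8, 52.5 and 47.3 CPM at High against 55.8, 56.1 and 66.0 CPM at Low and fell by 0.27 (SE 0.07, adjusted p = 8.0e-04). For each of these 3 genes no High library reached a Low library.

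ATP5F1A with Poria Cocos fell by 0.18 (SE 0.06, adjusted p = 0.015, edgeR), a call lost without the first High library (adjusted p = 0.067) or the third Low library (0.067). CYC1 measured 124, 160 and 152 CPM at High against 102, 123 and 134 CPM at Low; the groups overlapped, and the rise of 0.28 (SE 0.11, adjusted p = 0.045) was not called by DESeq2 (adjusted p = 0.050) or without any 1 of 4 libraries, High replicates 2 and 3 and Low replicates 1 and 2 (0.061 to 0.27). NDUFA10 rose by 0.10 (SE 0.04, adjusted p = 0.035), and that call was lost without the first or second High library or the first Low library (0.065 to 0.19), with no filter (0.48) and in a fit of only these groups (0.34). The 8 members lower in both extracts were ATP5F1A, ATP5F1C, ATP5PB, NDUFA11, NDUFA2, NDUFB1, SDHA and SDHD, which are 27.6% of those lower with Glycyrrhizae Radix and 57.1% of those lower with Poria Cocos. Over all genes tested the same shares were 32.3% and 48.9%.

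**Figure D4:**
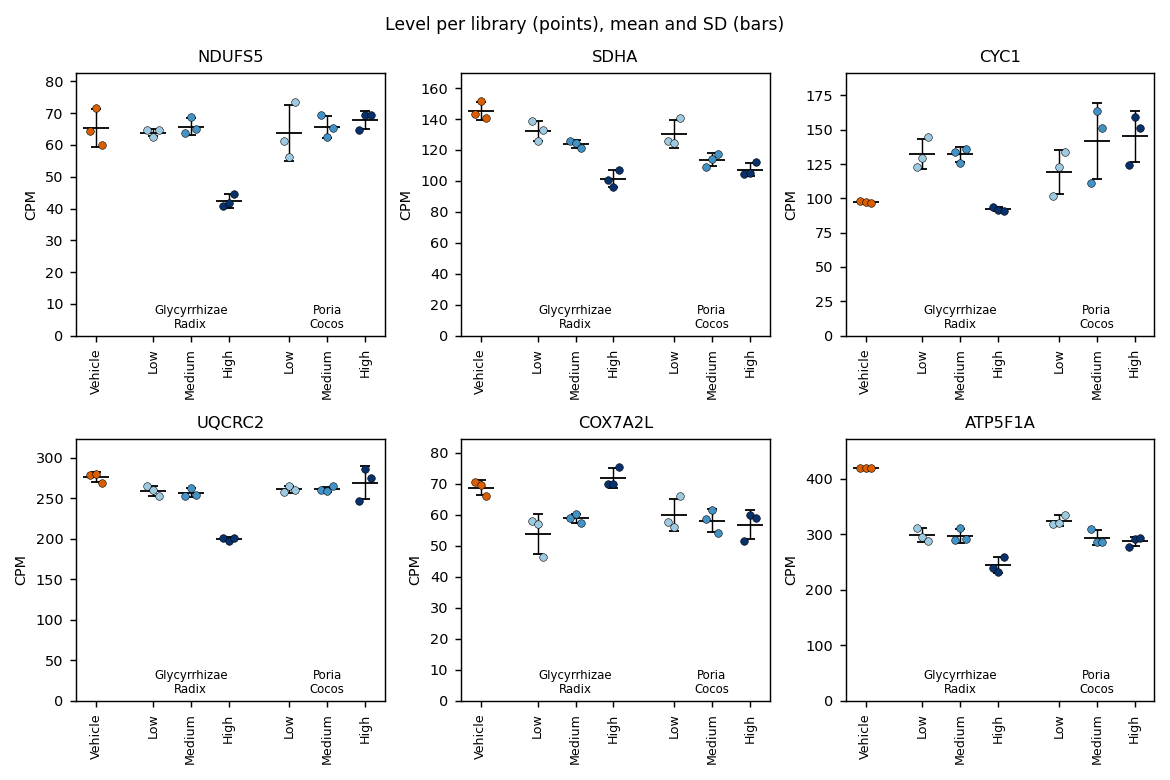
CPM (y axes, from 0) of 6 subunit genes in vehicle and at Low, Medium and High of Glycyrrhizae Radix and Poria Cocos; points are libraries, horizontal marks are means and bars are SD (n = 3). NDUFS5 and UQCRC2 drop at Glycyrrhizae Radix High alone among these groups, SDHA is low at High of both, CYC1 at Glycyrrhizae Radix High is just below vehicle, and ATP5F1A is below vehicle throughout.

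The difference between the dose responses of these extracts was tested as an interaction, Glycyrrhizae Radix (High over Low) minus Poria Cocos (High over Low). It passed for 14 members, 10 lower (12.5%, against 23.8% of all genes tested) and 4 higher (5.00%, against 21.8%), both shares below those of all genes. CYC1 had the largest difference at -0.80 (SE 0.16, adjusted p = 4.7e-05, edgeR), with the levels given above. NDUFS5 differed by -0.69 (SE 0.12, adjusted p = 4.9e-06), since Poria Cocos High measured 64.6, 69.4 and 69.4 CPM against 61.4, 56.2 and 73.4 CPM at Low. UQCRC2 differed by -0.42 (SE 0.06, adjusted p = 2.5e-07), with 247, 286 and 274 CPM at Poria Cocos High against 257, 265 and 260 CPM at Low, groups that overlapped.

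COX7A2L had an interaction of 0.49 (SE 0.10, adjusted p = 3.9e-05, edgeR), with 51.5, 59.9 and 59.0 CPM at Poria Cocos High against 57.7, 56.1 and 65.9 CPM at Low. NDUFV1, which fell with Poria Cocos alone of the pair, had 0.39 (SE 0.09, adjusted p = 0.00041). No complex II member passed, and their interaction values ran from -0.11 to 0.09 with a median of -0.01. The count of 14 was 24 with no filter on low counts, against 20.8% of all genes, and 8 in a fit of only these groups, against 42.8% of all genes. The share without the filter is over 33286 genes, where the main fit had 16284.

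In the other extracts 0 or 1 member passed the test after the filter on low counts. For Atractylodis Rhizoma 0 of 80 members passed by edgeR, where 6.41% of all genes did (3.02% lower, 3.39% higher); 2 had an unadjusted p under 0.05, DESeq2 called 0, and the median log2 difference was 0.03. For Panax Ginseng 0 passed by edgeR, where 5.79% of all genes did (2.87% lower, 2.92% higher); 1 had an unadjusted p under 0.05, DESeq2 called 0, and the median was 0.01. For Palmul-tang 0 passed by edgeR, where 0.516% of all genes did (0.319% lower, 0.197% higher); 11 had an unadjusted p under 0.05, all 11 higher at High, DESeq2 called 0, and the median was 0.09. With no filter on low counts 6 were called, all higher, where 0.691% of all 33286 genes were called.

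For Sibjeondaebo-tang 1 member passed, where 1.04% of all genes did (0.522% lower, 0.522% higher): NDUFA12, an accessory complex I subunit, with 48.3, 51.9 and 49.2 CPM at High against 41.9, 39.7 and 40.3 CPM at Low. The groups did not overlap, and the log2 difference was 0.30 (SE 0.07, adjusted p = 0.024, edgeR). The call was lost without High replicate 2 or 3 or Low replicate 2 or 3, at adjusted p = 0.068 to 0.11. All 14 members with an unadjusted p under 0.05 were higher at High, and the median log2 difference was 0.10. DESeq2 called 2 members, where it called 1.52% of all genes. For both formulas the share of all genes under that unadjusted threshold is not given here. With no filter on low counts 9 were called, all higher, where 1.23% of all 33286 genes were called. Over 12819 coding genes the High over Low difference went down with transcript length, at rho -0.21 for Sibjeondaebo-tang and -0.20 for Palmul-tang (Spearman). Coding genes under 1 kb had medians of 0.06 and 0.07. The 53 members that short had 0.10 and 0.11. The part of length in these rises was not tested.

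Angelicae Gigantis Radix and Paeoniae Radix had 1 library per dose, so their values are described without a test, as log2(CPM + 1) ratios to the vehicle mean. The median ratio over the 80 members was -0.14 at Low, -0.26 at Medium and -0.30 at High of Angelicae Gigantis Radix, and -0.33 at Low, -0.26 at Medium and -0.27 at High of Paeoniae Radix, while the median over all genes lay between -0.02 and 0.00. Between 62 and 74 of the 80 members were below the vehicle mean, where 8168 to 8530 of all 16284 genes tested were. CYC1 was above it at all 6, with 132, 146 and 146 CPM from Low to High of Angelicae Gigantis Radix and 138, 146 and 127 CPM from Low to High of Paeoniae Radix, against 97.3 ± 0.88 CPM in vehicle (SD, n = 3).

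Other genes of the pathway were read from lists chosen with earlier results known. None of the 13 mitochondrially encoded subunits passed the edgeR test between Glycyrrhizae Radix High and Low, where 56.3% of all genes did. Between Poria Cocos High and Low 11 of 13 were higher, against 20% of all genes, with a median log2 difference of 0.42; MT-CO1, the catalytic subunit of complex IV, rose by 0.41 (SE 0.09, adjusted p = 0.00035). At Low, 3 to 12 of the 13 were higher than vehicle in the 6 comparisons, and none was lower, where 9.9% to 18.3% of all genes were higher. Assembly factors were lower than vehicle at Low, over the 6 comparisons, for 2 to 7 of 18 of complex I, 0 to 3 of 4 of complex II, 3 to 5 of 9 of complex III, 9 to 14 of 27 of complex IV and 1 to 3 of 6 of complex V with its inhibitor, where 9.32% to 17.6% of all genes were lower. For complex II 0 of 4 were lower in 4 of these comparisons. At Glycyrrhizae Radix High against Low, complex IV factors went both ways, with 6 of 27 lower and 7 higher. In that comparison 27.8% of all genes were lower and 28.4% higher.

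Of 18 tested regulators of mitochondrial biogenesis, 10 were lower and 4 higher at Glycyrrhizae Radix High than at Low, where 27.8% of all genes were lower and 28.4% higher. TFAM, which packages and transcribes mitochondrial DNA, fell by 0.60 (SE 0.05, adjusted p = 8.7e-15, edgeR), NRF1 by 0.55 (SE 0.08, adjusted p = 3.0e-07), YY1 by 0.43 (SE 0.04, adjusted p = 1.2e-11) and GABPA by 0.42 (SE 0.08, adjusted p = 8.0e-06). The coactivator gene PPARGC1A rose by 1.07 (SE 0.08, adjusted p = 2.4e-15) and ESRRA, a nuclear receptor that works with it, by 0.67 (SE 0.08, adjusted p = 5.2e-10). With Poria Cocos 1 was lower and 6 higher, where 18.4% of all genes were lower and 20% higher, PPARGC1A among them at 0.45 (SE 0.09, adjusted p = 4.8e-05).

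Enzymes of the tricarboxylic acid cycle, which feeds complexes I and II, were lower at Glycyrrhizae Radix High for 7 of 13 and higher for 3, against the same shares of all genes as for the regulators. SUCLG1, a succinate-CoA ligase subunit, fell by 0.61 (SE 0.05, adjusted p = 1.2e-13, edgeR), citrate synthase (CS) by 0.45 (SE 0.05, adjusted p = 5.1e-10) and fumarase (FH) by 0.42 (SE 0.05, adjusted p = 1.3e-09). ATP5IF1, the inhibitor protein of the ATP synthase, fell in both extracts, by 0.50 (SE 0.07, adjusted p = 4.1e-08) with Glycyrrhizae Radix and by 0.38 (SE 0.07, adjusted p = 2.7e-05) with Poria Cocos.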

How the data were processed

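HepG2 messenger RNA was read from directional MGIEasy libraries as 100 bp pairs, per the labels' protocols. Per the submitters' processing notes the tools were FastQC 0.11.9, Trim Galore 0.6.5, STAR 2.7.3a and RSEM 1.3.3 on GRCh38; the annotation release and strand setting are not given in the sources used here. The values the authors deposited are RSEM expected counts, not normalised, with 23.4% of nonzero values not whole (tolerance 0.005). They were rounded. Of 270 sample columns 60 were used and 210 were not. Total counts per library ran from 19057230 to 33233215; their number limits precision, and the 0-count limit uses 3 counts and covers counting error only. Gene identifiers were matched to GENCODE 29 (57055) and a gene name table (56558).

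filterByExpr kept 16284 genes. Under R 4.3.3, edgeR 4.0.16 (TMM, glmQLFit, glmQLFTest, Benjamini-Hochberg) was fitted over 54 libraries with 1 coefficient per group. SE is the size of the log2 difference over the square root of F. The shared dispersion of 0.00317 equals a 5.6% coefficient of variation between libraries of a group. The scripts were tested on simulated data. No pair of libraries was identical. Alternatives were RLE scaling, no filter, a replicate block, no mitochondrial genome, only the groups compared, DESeq2 1.42.0, and leaving out each library.

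Members and lists were chosen with earlier results of these data known. Named members were, per complex, the largest called rise and fall with Glycyrrhizae Radix and Poria Cocos between High and Low, the up to 2 largest called in other extracts, the largest mean difference at Low, isoforms and landmark subunits. NDUFA4 was counted with complex I by symbol, though its protein is held to be a complex IV subunit. The wortmannin control in the series text was not analysed here. Values of 1 complex I member and 1 other gene are not reported here, though both stay in the counts.

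Same-numbered libraries deviated together (r over 0.1 in every pair) in 1 of 24 comparisons, so the numbers were not taken to pair libraries.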

Additional observations from a re-analysis of the deposited data

Results flagged for a closer look

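The results picked for a closer look are the 14 members whose log2 dose response differed between extracts in the interaction test (edgeR, adjusted p under 0.05), given as Glycyrrhizae Radix (High over Low) minus Poria Cocos (High over Low). In complex I the values were -0.69 for NDUFS5, -0.63 for NDUFC2, -0.28 for NDUFA12, -0.27 for NDUFA5 and -0.16 for NDUFA10, against 0.27 for NDUFB5 and 0.39 for NDUFV1. In complex III they were -0.80 for CYC1 and -0.42 for UQCRC2. In complex IV they were 0.40 for COX5B and 0.49 for COX7A2L. In complex V they were -0.42 for ATP5MF, -0.31 for ATP5MG and -0.27 for ATP5MC1. CYC1 was lower with Glycyrrhizae Radix and higher with Poria Cocos, and NDUFA10 was higher with Poria Cocos. Both calls with Poria Cocos were lost in several refits, as given above. What lies behind these differences was not tested.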

How the results depend on the processing

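RLE scaling, the replicate block and the counts without the mitochondrial genome left each of the 25 counts of called members within 1.5 times its value. The replicate block gave 31 called members for Glycyrrhizae Radix High vs Low and 16 for Poria Cocos High vs Low, the same numbers as without it; it brought NDUFA4L2 at Sibjeondaebo-tang Low past the threshold (adjusted p = 0.0496) and changed no other call of a named gene. With no filter on low counts, Poria Cocos High vs Low had 27 (17.4% of all genes called), Sibjeondaebo-tang High vs Low 9 (1.23%), Palmul-tang High vs Low 6 (0.691%) and the interaction 24 (20.8%). Those shares are over 33286 genes, where the main fit had 16284. With the fit limited to the groups compared, Poria Cocos High vs Low had 5 (27.6%), Poria Cocos Low vs Vehicle 15 (6.99%) and the interaction 8 (42.8%). DESeq2 called 2 for Sibjeondaebo-tang High vs Low (1.52% of all genes called). The cause of these shifts was not tested. Leaving out each library in turn gave 10 to 25 for Poria Cocos High vs Low, 0 to 2 for Sibjeondaebo-tang High vs Low, 19 to 51 for Poria Cocos Low vs Vehicle, and 34 to 57, 28 to 54 and 17 to 47 for Palmul-tang Low, Medium and High vs Vehicle. No value reversed. Groups of 3 libraries or fewer limit every count.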
